A study of Mus musculus with 2 samples.

Results

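The genes described here are 6 transcription factors of embryonic endoderm, *Gata6*, *Gata4*, *Sox17*, *Sox7*, *Foxa2* and *Hnf4a*, measured in mouse embryonic stem cells (ESCs) with and without the histone methyltransferase G9a (gene *Ehmt2*), which together with GLP places the repressive H3K9me2 mark. They are represented by all 14 probe sets of the array whose single annotated gene symbol is one of these names, out of 45101 probe sets and 18194 named genes. WT ESCs were TT2 cells, an F1 line whose mother was C57BL/6 and whose father was CBA, and were measured on 1 Affymetrix array, as were the G9a-KO ESCs. The latter are a single TT2-derived line with an older *G9a* mutant allele and a floxed allele that has lost exons 26 and 27, which encode the core of the catalytic SET domain. Both arrays carry the same treatment text in the labels, 800 nM 4-hydroxytamoxifen for 48 h to activate Cre and a further 48 h without it, and do not say whether the drug was given to WT cells. The methods of the study instead describe an established null line on inactivated embryonic fibroblasts, and they name serum with LIF where the labels name LIF with serum replacement and some fetal calf serum.

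Primitive endoderm is the extraembryonic layer that forms beside the epiblast in the blastocyst and gives rise to visceral and parietal endoderm. GATA6, a zinc finger protein, opposes NANOG and can turn ESCs into primitive endoderm-like cells when it is forced on. The HMG-box protein SOX17, then GATA4 and SOX7 act in the same layer soon afterwards. The forkhead protein FOXA2 and the nuclear receptor HNF4A act later, FOXA2 in visceral endoderm, the node and definitive endoderm, and HNF4A in visceral endoderm and the liver, where it switches on genes of secreted carrier proteins.

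Each level below is a log2 value with the 75th percentile of its array at 0, and each difference is the G9a-KO level less the WT level, also in log2 units. Each genotype had a single array and hence no replicate spread, so no difference was tested and none can be set against the variation between cultures. The robust SD of the differences of all 18194 genes was 0.36 and their median was 0.036. The 45 control probe sets for added RNA differed with an SD of 0.18. The targeted gene *Ehmt2* had levels of 2.05 in WT and 0.51 in G9a-KO by its brighter probe set (2.90-fold lower) and differed by 0.20 by the other. No source used here places these probe sets inside or outside the deleted exons, so they do not check the label. All 14 pluripotency genes examined, among them *Pou5f1*, *Sox2* and *Nanog*, were above the array median in WT and in G9a-KO.

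All 6 factors were higher in G9a-KO ESCs, and each of them by over 2-fold. The differences ran from 1.39 for *Hnf4a* to 3.13 for *Gata6*, with a median of 1.81 (3.50-fold). Over all genes, 17.4% were over 1.3-fold higher and 4.61% over 2-fold higher (17.2% and 3.76% lower) by the same rule, in which a gene is represented by its probe set of highest mean level. When at least 1 probe set past 1.3-fold is enough, as in the methods of the study, all 6 were again higher, beside 24.6% of all genes (22% had a probe set that was lower). As the RNA came from whole cultures, more cells of a type and more RNA per cell cannot be told apart.

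**Figure D1:**
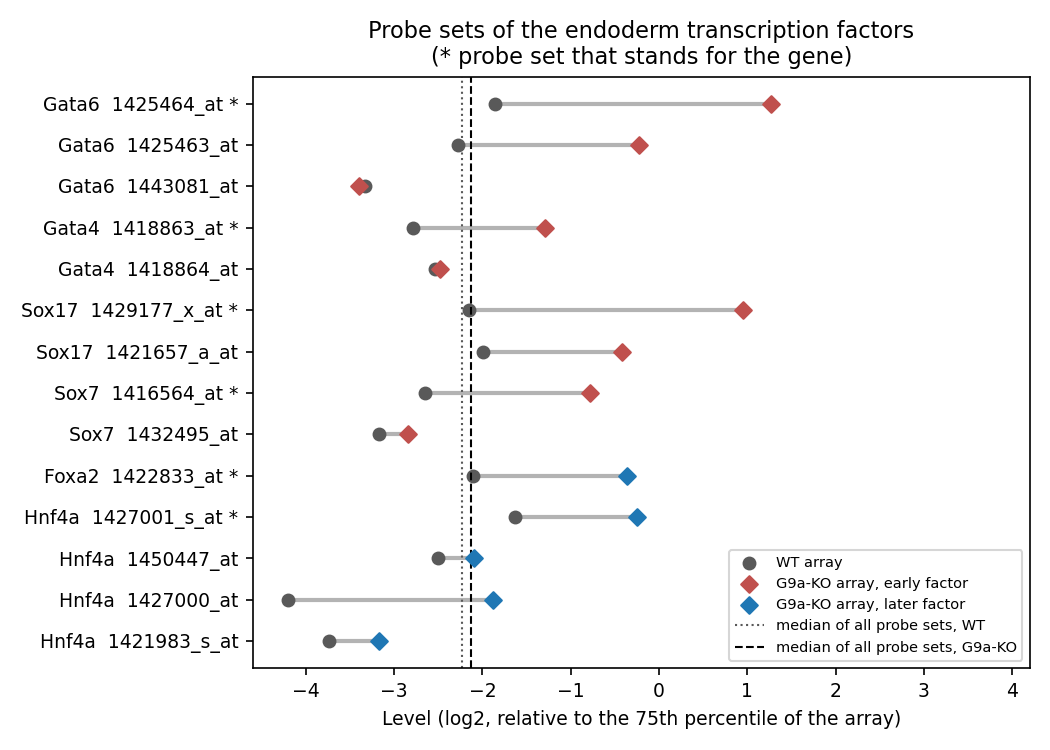
Level of each of the 14 probe sets of the endoderm factors (log2, 75th percentile of the array at 0, horizontal axis) on the WT array (grey circles) and the G9a-KO array (diamonds, red for early and blue for later factors), 1 point per array. The longest grey connecting line is that of *Gata6* 1425464_at, from -1.85 to 1.27, whereas *Gata6* 1443081_at and *Gata4* 1418864_at hardly separate the arrays.

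*Gata6* had the highest difference of the 6 and ranked 68th among all genes. Its brightest probe set, 1425464_at, stood at -1.85 in WT and 1.27 in G9a-KO (8.74-fold higher). Probe set 1425463_at, designed from the same sequence record, stood at -2.27 and -0.23 (4.13-fold). Probe set 1443081_at was designed from another record, and its values of -3.33 and -3.40 were below the array median on both arrays. The *Gata6* signal was thus just above the median of all probe sets in WT (-2.24) and well above that of G9a-KO (-2.13) by its brightest probe set. Among genes of similar mean level the differences had a robust SD of 0.51.

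*Sox17* was nearly as far apart and ranked 70th. Probe set 1429177_x_at stood at -2.15 in WT and 0.96 in G9a-KO, which gave a difference of 3.11 (8.60-fold). Its _x_at ending marks a probe set that may bind other transcripts as well. Probe set 1421657_a_at, which has no such mark, stood at -1.99 and -0.42, a difference of 1.58 (2.98-fold). Both probe sets lay above the array median on both arrays and ran in the same direction, so the direction of *Sox17* did not depend on the marked probe set, but its size did.

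*Sox7*, whose product is also made in endothelium, ranked 237th. Its probe set 1416564_at stood at -2.65 in WT and -0.78 in G9a-KO, a difference of 1.86 (3.64-fold). The other, 1432495_at, was dim on both arrays at -3.17 and -2.84 and differed by 0.33, within 1.3-fold. *Sox7* therefore passed from below to above the array median by its brighter probe set, and its fold is not exact.

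*Gata4*, which also acts in the heart, had the lowest difference of the early factors and ranked 393rd. Probe set 1418863_at stood at -2.79 in WT, below the array median, and at -1.29 in G9a-KO, a difference of 1.50 (2.82-fold). Probe set 1418864_at, designed from the same record, held exactly the same deposited value on both arrays, and its difference of 0.056 is the shift between the arrays alone. Identical values were held by 2347 probe sets (5.20%). The value of *Gata4* thus rests on 1 of its probe sets.

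*Foxa2* had 1 probe set, 1422833_at. It stood at -2.11 in WT and -0.36 in G9a-KO, a difference of 1.75 (3.36-fold), and *Foxa2* ranked 280th. Its WT level was just above the median of that array. No second probe set was there to check the size of the difference.

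*Hnf4a* had the lowest difference of the 6 and ranked 467th. Its 4 probe sets came from 2 sequence records. Those of one record were 1427001_s_at, at -1.64 in WT and -0.25 in G9a-KO (1.39, 2.61-fold), and 1427000_at, at -4.21 and -1.88 (2.32). Those of the other record were 1450447_at, at -2.50 and -2.09 (0.40, 1.32-fold), and 1421983_s_at, at -3.73 and -3.17 (0.56, 1.47-fold). All 4 probe sets of *Hnf4a* were thus over 1.3-fold higher in G9a-KO, by more in the probe sets of the former record than in those of the latter. For 1450447_at this held only with the shift of 0.056 between the arrays. Probe set 1427001_s_at, which stands for the gene, was the only one of the 4 above the array median in WT, and its _s_at ending marks it as able to bind several transcripts.

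Promoter sequence from RefSeq (assembly GRCm38.p6) was matched by symbol for 2 of the 6 factors, *Foxa2* with 3 start sites and *Hnf4a* with 2. The windows run from 250 bases before to 50 bases after a start site. They were searched on both strands for AGATAA (bound by GATA factors), ACAAT (SOX factors), TGTTTAC (FOXA factors), CAAAG (core of the HNF4 site) and CACGTG (the E-box bound by MAX). AGATAA was found in 1 window of each gene, and 11.2% of all 32851 promoter windows hold it. ACAAT was found in the upstream window of *Hnf4a*, which also holds AGATAA, and in 31.0% of all windows. CAAAG was in 3 of the 5 windows and in 53.9% of all. TGTTTAC (3.65% of all windows) and CACGTG (7.15%) were in none of the 5. The 250 bases before 3 start sites are shown because they are where the letters bound by the GATA factors do and do not occur in the genes that come later in the lineage. Capitals mark AGATAA. The windows are *Foxa2* (most downstream start site, minus strand, chr2:148045465-148045714), *Hnf4a* (upstream start site, plus strand, chr2:163506607-163506856) and *Hnf4a* (downstream start site, plus strand, chr2:163546905-163547154).
Foxa2 most downstream start site: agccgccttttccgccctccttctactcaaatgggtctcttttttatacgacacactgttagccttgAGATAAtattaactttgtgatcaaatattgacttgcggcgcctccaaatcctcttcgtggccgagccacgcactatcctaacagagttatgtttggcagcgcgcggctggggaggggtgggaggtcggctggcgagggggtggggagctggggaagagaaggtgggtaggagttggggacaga
Hnf4a upstream start site: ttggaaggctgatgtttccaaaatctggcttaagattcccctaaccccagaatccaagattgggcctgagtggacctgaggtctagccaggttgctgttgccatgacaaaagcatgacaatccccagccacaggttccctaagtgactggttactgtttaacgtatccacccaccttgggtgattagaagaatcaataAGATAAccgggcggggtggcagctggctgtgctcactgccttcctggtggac
Hnf4a downstream start site: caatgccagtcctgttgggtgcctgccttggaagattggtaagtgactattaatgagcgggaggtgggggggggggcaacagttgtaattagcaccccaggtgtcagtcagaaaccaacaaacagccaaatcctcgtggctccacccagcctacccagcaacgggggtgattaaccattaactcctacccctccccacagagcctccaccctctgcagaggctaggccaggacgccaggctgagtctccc
Counted from the start site, the match begins at -183 in *Foxa2* and at -52 in *Hnf4a*, overlaps none of the other motifs, and the downstream window of *Hnf4a* has none. Such a match describes the letters and is not evidence of binding.

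Taking the 14 probe sets alone, in G9a-KO 11 exceeded WT by over 1.3-fold, 9 of these by over 2-fold, 3 were within 1.3-fold and 0 were over 1.3-fold lower. Of the 11, *Hnf4a* 1450447_at passed 1.3-fold only with the shift between the arrays. Over all probe sets, 16.8% were over 1.3-fold and 3.69% over 2-fold higher. The 3 within the threshold, *Gata6* 1443081_at, *Gata4* 1418864_at and *Sox7* 1432495_at, lay below the median on both arrays, as did *Hnf4a* 1421983_s_at. In WT, 5 of the 14 were above the array median, and in G9a-KO 10 were. The WT level of most members was therefore close to or below the median, and their folds are not exact.

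The early factors were then set against the later ones. The median difference was 2.48 over *Gata6*, *Sox17*, *Sox7* and *Gata4* and 1.57 over *Foxa2* and *Hnf4a*, a gap of 0.92. The groups overlapped, since *Foxa2* (1.75) was 0.25 above *Gata4* (1.50). Of the 8 pairs of an early and a later factor, the early one was higher in 7. The gap came from *Gata6* and *Sox17*, which were 1.24 or more above each of the other 4 factors, while *Sox7*, *Foxa2*, *Gata4* and *Hnf4a* lay within 0.48 of each other. The order also depended on the probe sets. With the mean over the probe sets of each gene, the medians were 1.40 (early) and 1.46 (later), and the gap turned to -0.059. In the other settings the gap stayed positive. No shift and median centring could not change it, as they add a constant to each array. Nor could the restriction to probe sets above the median on at least 1 array, which kept the probe set of each factor (0.92 in all of these). The gap was 0.64 without _s_at and _x_at probe sets and 0.45 with the probe set of largest absolute difference. Hence the order of early and later factors did not hold in every setting. The spread between probe sets of a single gene (1.44 to 3.19 for the 5 factors with several) exceeded the gap between the groups.

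**Figure D2:**
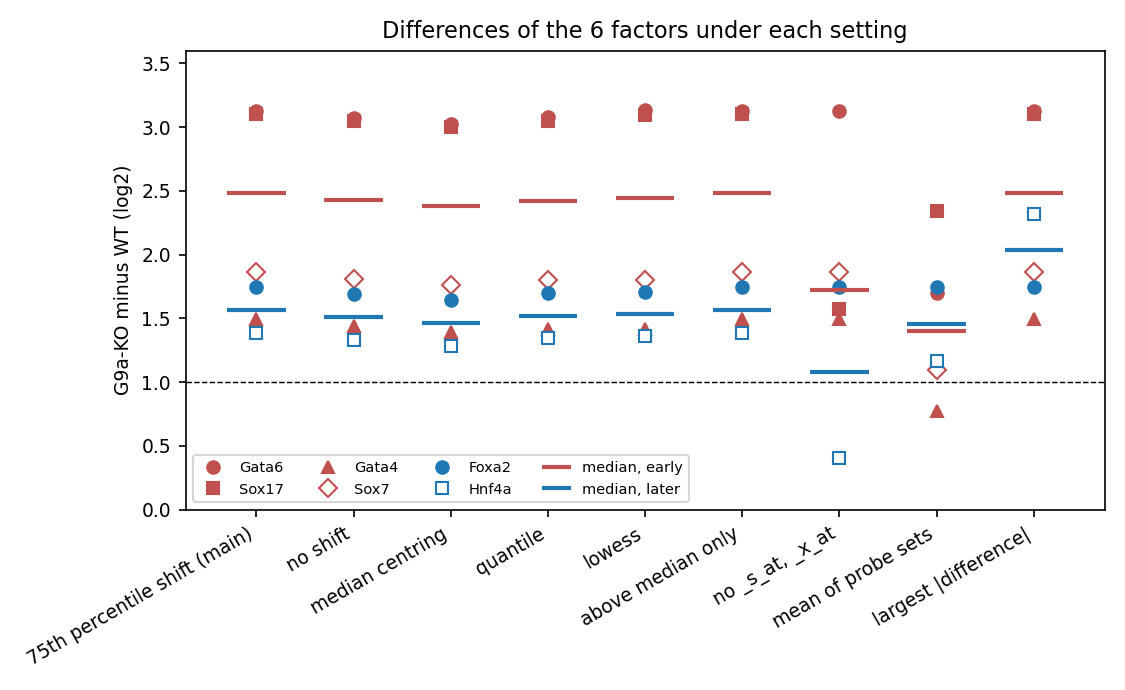
Log2 difference of each factor (G9a-KO minus WT, vertical axis) under 9 settings of the analysis (horizontal axis), with red symbols for early and blue symbols for later factors, horizontal bars for the group medians and a dashed line at 2-fold. All 54 symbols lie above 0, and the red and blue medians change places under the mean of probe sets (1.40 and 1.46).

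Other members of the same families, among them *Foxa1* and *Foxa3*, listed below with definitive endoderm, did not as a list follow the 6 factors. Of 8 paralogs, 1 was over 1.3-fold higher and 3 were lower, with a median of -0.18, beside 17.4% higher and 17.2% lower over all genes. *Sox18*, the remaining SOXF gene and a factor of endothelium, stood at -0.99 in WT and -2.54 in G9a-KO, 2.92-fold lower, where *Sox17* and *Sox7* were higher. The paralogs of *Foxa2* ran the same way as *Sox18*, with *Foxa3* at -1.24 and -2.26 (2.02-fold lower) and *Foxa1* at -2.15 and -2.68 (1.45-fold lower). The levels of *Sox18*, *Foxa3* and *Foxa1* in G9a-KO were below the array median.

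The other GATA genes were low or similar on both arrays. *Gata3*, a trophoblast factor, differed by 1.00 but was below the median on both arrays (-3.43 and -2.43). *Gata2* was above it on both and differed by -0.29, and its other probe set by 0.056. *Gata1* differed by 0.16 and *Gata5* by -0.0063, both below the median throughout, as was *Hnf4g* (-0.078), the paralog of *Hnf4a*. Of the GATA cofactors, *Zfpm1* differed by 0.79 and *Zfpm2* by 0.28, with 0.19 and -0.87 by their other probe sets, so no direction can be given for this pair.

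**Figure D3:**
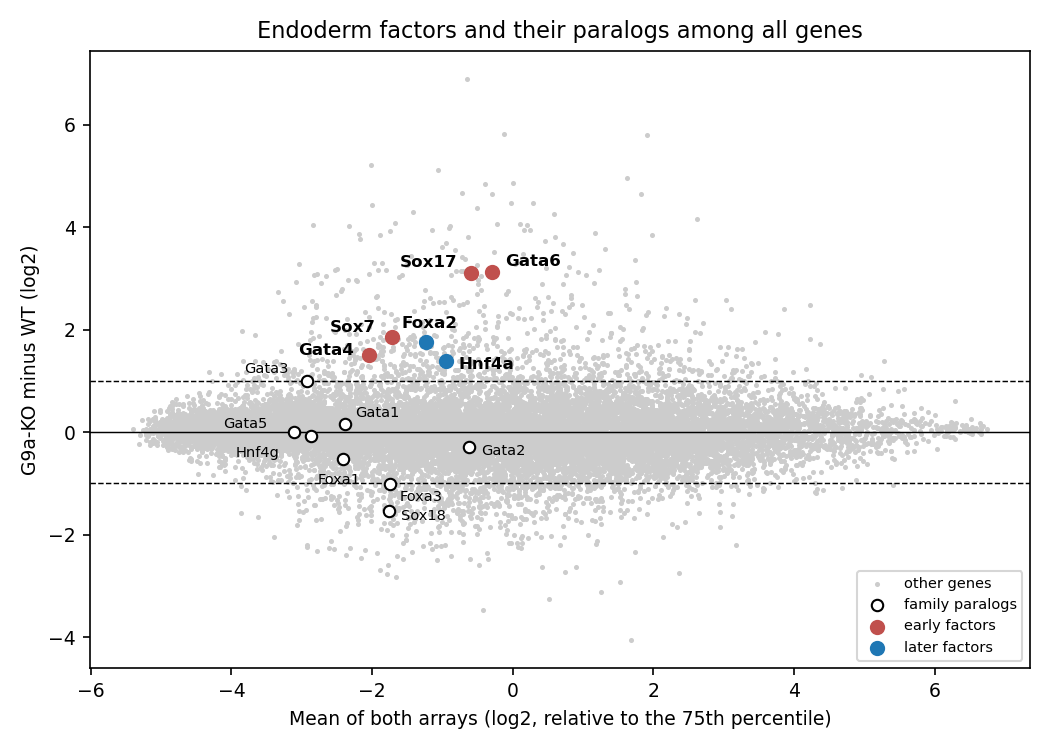
Each of 18194 genes is a point, with its mean level over the arrays (log2, 75th percentile at 0) on the horizontal axis, its log2 difference (G9a-KO minus WT) on the vertical axis, with dashed lines at 2-fold. All 6 factors (red and blue) lie above the upper dashed line, whereas of their 8 paralogs (open circles) *Sox18* and *Foxa3* lie below the lower one.

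Genes of the FGF, PDGF and LIF signals that act on primitive endoderm, with *Nanog*, were examined next. Of these 10, 4 were over 1.3-fold higher and 0 were lower (beside 17.4% and 17.2% of all genes), 6 were within 1.3-fold, and the median was 0.22. *Nanog*, which represses *Gata6*, stood at 4.10 in WT and 4.31 in G9a-KO (0.21). *Fgf4*, the ligand that drives primitive endoderm, differed by 0.079 (-0.11 to 1.43 by its other probe sets), and the adaptor *Grb2* by -0.14. The FGF receptor *Fgfr1* was higher by 0.45, but differed by -0.064 and 0.19 by its other probe sets. *Il6st* was higher by 0.40, with -0.28 to 0.72 by its other probe sets. *Pdgfra*, a receptor that marks the layer and is itself induced by GATA6, stood apart at -1.82 and 2.22 (4.04, and 0.81 and 1.89 by its other probe sets), followed by the kinase *Jak1* at 0.51 and 1.53 (1.02, and 0.51 and 0.56 by its other probe sets). *Pdgfa*, the ligand of *Pdgfra*, differed by 0.23.

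Genes that carry out the work of primitive endoderm were higher together with the factors. All 13 in the list, *Pdgfra* among them, were over 2-fold higher, beside 4.61% of all genes. Their median difference was 4.04, and 2.61 with the mean over the probe sets of each gene. The list was chosen with earlier results of these arrays known and is therefore not independent evidence of the direction. *Cubn*, an endocytic receptor, ran from -3.04 to 2.78 (5.82), the basement membrane chains *Col4a1* and *Col4a2* from -0.86 to 4.10 and from -2.43 to 2.44, and the endocytic adaptor *Dab2*, a known target of GATA6, from -2.69 to 1.68 (4.37). Other probe sets put *Cubn* at 4.71, *Col4a1* at 4.46 and *Dab2* between 0.70 and 2.91. Single probe sets of *Lrp2* (0.0020), *Sparc* (0.14) and *Nid1* (0.33) hardly differed. The gene values ranged from 2.22 to 5.82, and as *Cubn*, *Dab2*, *Col4a2* and *Lrp2* were below the array median in WT, like *Sox7* and *Gata4*, these sizes are not exact and were not ranked against those of the factors.

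Genes of visceral endoderm, mostly secreted carrier and clotting proteins that HNF4A is known to switch on in liver, were divided. Of 15 measured, 7 were over 1.3-fold higher (6 of them over 2-fold) and 0 were lower, with a median of 0.31, where 17.4% of all genes were over 1.3-fold and 4.61% over 2-fold higher and 17.2% were lower. *Apom*, an apolipoprotein, ran from -1.98 to 1.00 (2.97, and 1.46 by its other probe set), and the fibrinogen chains *Fgg* and *Fgb* from -3.13 to -0.70 (2.42) and from -3.28 to -0.92 (2.35). The remaining fibrinogen chain, *Fga*, was below the median on both arrays (-4.76 and -4.45) and differed by 0.31, within 1.3-fold. *Bmp2*, a signal made by visceral endoderm, ran from -3.52 to -1.56 (1.97). The WT levels of *Fgg*, *Fgb* and *Bmp2* were below the median, so these folds are not exact. *Ttr*, a thyroid hormone carrier, differed by 0.82 and by 1.37 to 3.24 by its other probe sets, and *Afp* by 1.19 and by 0.056 to 3.85. In contrast, *Apob* (-0.16), *Apoa4* (-0.16), *Apoa1* (0.29), *Rbp4* (0.14) and *Alb* (0.056) were within 1.3-fold. *Alb* was below the median on both arrays (-3.16 and -3.11), and its difference is the shift alone. *Apob*, *Apoa4* and *Apoa1* were just above the median in WT, and *Apob* and *Apoa4* were below it in G9a-KO. Over probe sets above the array median on at least 1 array, the median of the list was 0.97. This filter kept *Fgg*, *Fgb*, *Bmp2* and *Afp* through G9a-KO alone and *Apob* and *Apoa4* through WT alone. It dropped genes below the median on both arrays, so 0.97 is not further evidence of the direction. *Trf* was not analysed here.

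**Figure D4:**
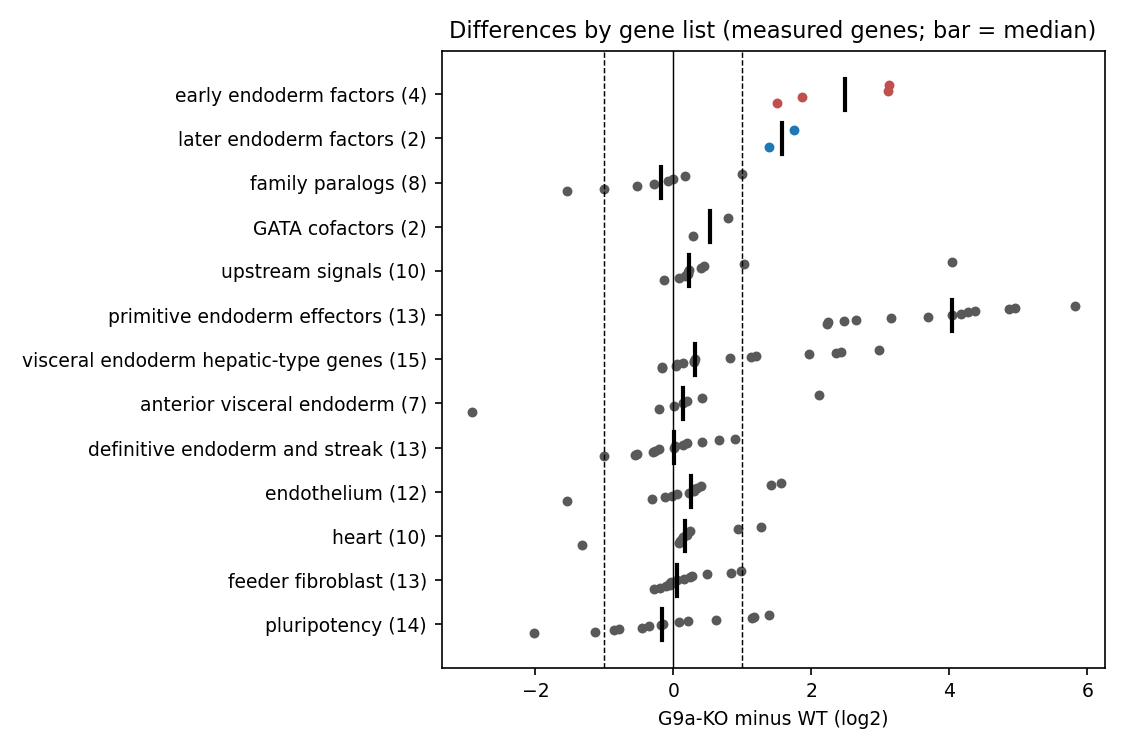
Difference between G9a-KO and WT (log2, horizontal axis) of every measured gene in 13 lists (rows, with the number of measured genes), 1 point per gene, black bars for the list medians and dashed lines at 2-fold. All 13 primitive endoderm effectors lie to the right of the right-hand dashed line, as do the 6 factors, whereas the 13 definitive endoderm and streak genes centre on 0.0099.

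As *Foxa2* and *Sox17* also mark definitive endoderm, and *Foxa2* the anterior visceral endoderm, genes of these tissues were examined beside them. Of 13 definitive endoderm and streak genes, 3 lay over 1.3-fold above WT and 3 below it, shares near those of all genes (17.4% and 17.2%). The median of 0.0099 was negative when the deposited values were not shifted (-0.046) and under median centring (-0.092). It was also negative under quantile normalization (-0.081) and lowess (-0.061). *Pyy* (0.89), *Eomes* (0.67), a T-box factor of the streak, and *Lhx1* (0.41, but -0.10 by its other probe set) were higher. *Foxa3* (-1.01), *Trh* (-0.56) and *Foxa1* (-0.53) were lower. Of the 13, 4 were below the median on both arrays (*Cer1*, *Gsc*, *Cxcr4* and *Lhx1*), whereas *Eomes*, *Mesp1*, *Hhex*, *Nkx2-1*, *Pyy* and *Trh* were above it on both. Of 7 genes of anterior visceral endoderm, *Dkk1*, a Wnt inhibitor, was higher (2.10, and 0.95 by its other probe set). *Lhx1* was higher too (0.41, but -0.10 by its other probe set), below the median on both arrays. *Lefty1*, a Nodal inhibitor that was already high in WT ESCs, was lower (2.99 in WT and 0.067 in G9a-KO, -2.92). *Hhex* (0.20) and *Otx2* (0.0035) were within 1.3-fold, and the list median was 0.13.

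Several of the 6 factors act in other tissues too, and the genes of these tissues were listed for that reason. Of 12 endothelial genes, listed for *Sox17* and *Sox7*, 3 lay over 1.3-fold above WT and 1 below it (beside 17.4% and 17.2% of all genes). Their median was 0.26, with mean levels of -1.90 in WT and -1.68 in G9a-KO. The angiopoietin receptor *Tek* (1.56) and *Pecam1* (1.41), which ESCs express as well, were higher, as was *Tie1* (0.40, below the median on both arrays). *Sox18* was lower (-1.54). Of the 12, 4 were below the median on both arrays (*Cdh5*, *Emcn*, *Erg* and *Tie1*), whereas *Pecam1*, *Tek*, *Flt1*, *Kdr*, *Esam*, *Eng* and *Etv2* were above it on both. Of 10 heart genes, listed for *Gata4* and *Gata6*, 2 were higher and 1 was lower (again beside 17.4% and 17.2% of all genes). Their median was 0.17, with mean levels of -2.41 and -2.21. *Myl7* (1.27) and *Myh7* (0.93) were higher, and *Myh6* was lower (-1.32, but 0.18 by its other probe set). Of the 10, 5 were below the median on both arrays (*Nppa*, *Tnnt2*, *Tbx5*, *Hand2* and *Mef2c*), whereas the heart factor *Nkx2-5* was above it on both (-1.49 and -1.41), as was *Myl7*.

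The methods of the study place G9a-KO ESCs on embryonic fibroblasts, whose markers were examined for that reason. Of 13, 3 were over 1.3-fold higher and 0 were lower (beside 17.4% and 17.2% of all genes), with a median of 0.056, and mean levels of -2.31 in WT and -2.14 in G9a-KO. Of the 13, 9 were below the median on both arrays, among them *Col1a1*, *Col3a1*, *Dcn*, *Postn*, *Prrx1* and *Thy1*, whereas *Vim*, which ESCs express as well, and *Col1a2* were above it on both. *Col1a2* ran from -2.19 to -1.36 (0.83, but -0.23 and 0.14 by its other probe sets), *Lum* from -3.51 to -2.52 (0.98) and *Twist1* from -2.31 to -1.83 (0.48). The list median was 0 without a shift, -0.046 under median centring, -0.0075 under quantile normalization and -0.0084 under lowess. The part of fibroblasts in the values of the 6 factors was not tested.

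Of 14 pluripotency genes, 4 were over 1.3-fold higher and 5 lower in G9a-KO (beside 17.4% and 17.2% of all genes), with a median of -0.16 and mean levels of 3.22 in WT and 3.13 in G9a-KO. *Nr0b1* (-2.02) and *Klf2* (-1.14) were lower, and *Klf5* (1.38) and *Tbx3* (1.17) were higher. Also lower were *Dppa3* (-0.87), *Zfp42* (-0.79) and *Pou5f1* (-0.46). *Tfcp2l1* (1.14, and 0.12 and 0.20 by its other probe sets) and *Dppa5a* (0.61) were also higher. *Sox2* differed by -0.15. The endoderm factors were thus higher on an array on which *Nanog*, *Sox2* and *Pou5f1* stood between 4.31 and 4.56 above the 75th percentile.

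Over 2 arrays a pattern is a single difference, so likeness was measured as the gap between differences, over the 12600 genes above the median on at least 1 array. The nearest to *Gata6* were *Ankrd33b* and *Cited1* (gaps of 0.0070 and 0.0092), and to *Sox17* *Ankrd33b* and *Tcstv3* (0.015 and 0.020). The nearest to *Sox7* were *Wwtr1* and *Mrvi1*, to *Gata4* *Nxnl2* and *Igsf3*, to *Foxa2* *Ttc14* and *Slc38a4* and to *Hnf4a* *Ctsl* and *Aqp3*, with gaps of 0 to 0.010. *Wwtr1* encodes TAZ, a coactivator of the Hippo pathway, and *Cited1* a coactivator that binds CBP.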

How the data were processed

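Total RNA (200 ng per array) of WT and G9a-KO ESCs was labelled and hybridized by the authors to Affymetrix mouse arrays. The log2 values deposited by the authors come from RMA, and the submitters' processing notes name R 3.2.1 (RMA package not given in the sources used here). Since RMA gives all arrays the same distribution of probe intensities after background correction, a difference in RNA per cell cannot be seen. Deposited values ran from 1.82 to 14.3.

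The 75th percentile of all probe sets (7.37 in WT, 7.31 in G9a-KO) was set to 0 on each array and the WT value of a probe set was then subtracted from its G9a-KO value, following the methods of the study. This adds 0.056 to each difference. The probe set with the highest mean stands for a gene. Gene symbols came from GEO's platform annotation: 34958 probe sets had 1 symbol, 932 several and 9211 none here, and 34754 of the 34958 matched the RefSeq gene table (GRCm38.p6) by gene ID. Thresholds were 1.3-fold, used by the study for this pair, and 2-fold. With 1 array per group no p-value or SE was computed, and precision is limited by there being 1 array each.

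The 6 factors and the gene lists were chosen with earlier results of these data known. Besides the 6 factors, *Ehmt2*, the paralogs and the GATA cofactors, the genes named are up to 4 per list with the largest absolute difference, above the array median on at least 1 array and with all probe sets above it in the same direction, and the 2 genes nearest to each factor. Other genes were named after their values were seen. A comparison of the protein sequences was planned and is not reported here. The steps were tested on simulated arrays with planted changes. Python 3.11.15, pandas 2.3.3 and statsmodels 0.14.6 were used.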

Additional observations from a re-analysis of the deposited data

How the results depend on the processing

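All 6 factors were over 1.3-fold higher in G9a-KO under each of the 8 alternatives (no shift, median centring, quantile normalization, lowess, probe sets above the median only, no _s_at or _x_at probe sets, mean over probe sets, probe set with the largest absolute difference), and over 2-fold in 46 of 48 values. Median centring lowers every difference by 0.10 and turns the share of higher genes among those past 1.3-fold from 50.4% to 36.9% (no shift, 42.5%; quantile normalization, 44.1%). The choice of probe set mattered more. Without _s_at and _x_at probe sets, *Sox17* was 1.58 and *Hnf4a* 0.40, the latter past 1.3-fold only with the shift between the arrays. The medians were then 1.72 (early) and 1.08 (later), with a gap of 0.64. With the mean over probe sets, *Gata6* was 1.70, *Gata4* 0.78, *Sox17* 2.34, *Sox7* 1.10 and *Hnf4a* 1.17, the early median 1.40 and the gap -0.059, while the GATA cofactors had a median of 0.099 and the primitive endoderm effectors one of 2.61. With the largest absolute difference, *Hnf4a* was 2.32, the later median 2.04 and the gap 0.45, and the medians were -0.036 for the GATA cofactors, whose sign turned, and 0.43 for the upstream signals. The above-median filter kept some genes through 1 array alone, where they are high, as with *Sox18* in WT and *Fgg* in G9a-KO. With it, the medians were -0.77 for the paralogs and 0.97 for the visceral endoderm genes. These shifts follow from which probe sets are used, and which of them report the transcripts best was not tested. The other 161 values moved by less than the SD of the control probe sets (0.18) or, for counts, by less than 1.5 times. No paired analysis was possible because each group has 1 array. No replicate could be left out for the same reason.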

Other observations

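Genes next to the 6 factors on the chromosomes were examined, taking the 3 nearest measured genes on each side in the order of the RefSeq gene table (35 genes, *Mtmr9* counted for both *Gata4* and *Sox7*). Of the 36 values, 6 were over 1.3-fold higher and 3 lower, with a median of 0.075, beside 17.4% higher and 17.2% lower over all genes. The 6 neighbours of *Sox17*, among them *Mrpl15* (0.016) and *Rp1* (-0.16), were within 1.3-fold, as were those of *Foxa2*, including *Thbd* (0.27), a gene of parietal endoderm. Near *Gata6*, *Cables1* differed by 0.83 and *Mib1* by 0.16.

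*Gata4* and *Sox7* lie near each other with 5 measured genes between them. These 5, *Blk*, *Fam167a*, *Mtmr9*, *Xkr6* and *Pinx1*, differed by -0.80 to 0.40, against 1.50 for *Gata4* and 1.86 for *Sox7*. On the other side of *Gata4*, *Ctsb*, a lysosomal protease, ran from 1.69 to 3.32 (1.63) and *Defb42* from -2.70 to -0.66 (2.04), with *Fdft1* (0.075) closer to *Gata4* than both. Beside *Hnf4a*, *Ttpal* ran from -0.71 to -2.72, a difference of -2.01, and the antisense transcript *Hnf4aos* held the same deposited value on both arrays. These genes were named after their values were seen.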
